A study of Mus musculus with 32 samples.

Results

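Hox genes encode homeodomain transcription factors that give cells their position along the body axis and the limbs. Their transcripts were described in the tibialis, quadriceps and gastrocnemius, all muscles of the mouse hind leg. The genes were chosen by name only: every protein-coding entry of the count table whose symbol is Hox, a cluster letter from a to d and a number. This gave 40 identifiers with 39 symbols, Hoxd4 being listed under 2 identifiers, out of 54838 identifiers in all. Samples came from male mice of no more than 3 months, for which 4 animals per state are named. A sick or healthy mouse carried Gne M743T on both alleles as a knock-in, and the other mice were wild type. Gne encodes the key enzyme of sialic acid synthesis, and this missense variant is known from patients with GNE myopathy. What separated sick from healthy knock-in mice is not stated in the labels. The tibialis gave 3 sick, 4 healthy and 4 wild-type libraries, the quadriceps 3, 4 and 4, and the gastrocnemius 3, 3 and 4, in the same order of states. A missense allele need not change the level of its transcript, so the counts of Gne check no label.

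Mammalian Hox genes lie in the clusters A, B, C and D, and the number in a symbol gives a gene's position in its cluster. Genes with low numbers act toward the head, and genes with high numbers toward the tail and the ends of the limbs. In the mouse hind limb, the genes of group 10 are known for shaping the thigh, those of group 11 for the lower leg and those of group 13 for the foot. The quadriceps lies in the thigh, and the tibialis and gastrocnemius lie in the lower leg. Adult connective tissue cells are known to keep a Hox pattern that reflects where they sit.

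Stretches upstream of the starts of 5 genes are shown: Hoxa11 and Hoxa13, neighbouring groups of cluster A that were both low in quadriceps, and Hoxd8, Hoxd9 and Hoxd10 of cluster D, whose highest levels were in gastrocnemius. Each line runs from 250 to 51 bases before the start that RefSeq annotates on GRCm38.p6. Capitals mark TAAT on either strand, the core of most homeodomain binding sites. The stretches are chr6:52245861-52246060 on the minus strand for Hoxa11, chr6:52260931-52261130 on the minus strand for Hoxa13, chr2:74704365-74704564 on the plus strand for Hoxd8, chr2:74697513-74697712 on the plus strand for Hoxd9 and chr2:74691641-74691840 on the plus strand for Hoxd10.
Hoxa11: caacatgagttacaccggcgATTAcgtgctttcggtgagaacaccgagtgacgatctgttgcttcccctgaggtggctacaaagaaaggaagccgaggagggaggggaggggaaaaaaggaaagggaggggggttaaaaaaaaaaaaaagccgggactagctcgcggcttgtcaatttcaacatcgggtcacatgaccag
Hoxa13: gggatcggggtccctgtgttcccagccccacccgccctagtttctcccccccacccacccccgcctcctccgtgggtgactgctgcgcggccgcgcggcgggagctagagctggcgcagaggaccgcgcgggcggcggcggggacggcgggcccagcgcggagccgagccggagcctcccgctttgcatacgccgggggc
Hoxd8: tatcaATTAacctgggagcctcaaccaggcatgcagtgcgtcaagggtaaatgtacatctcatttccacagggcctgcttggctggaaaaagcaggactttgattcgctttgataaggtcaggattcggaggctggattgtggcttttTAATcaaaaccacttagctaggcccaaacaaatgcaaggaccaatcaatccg
Hoxd9: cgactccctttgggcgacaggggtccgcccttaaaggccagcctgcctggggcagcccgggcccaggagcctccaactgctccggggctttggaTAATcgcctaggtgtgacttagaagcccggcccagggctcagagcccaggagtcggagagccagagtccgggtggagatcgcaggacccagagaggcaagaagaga
Hoxd10: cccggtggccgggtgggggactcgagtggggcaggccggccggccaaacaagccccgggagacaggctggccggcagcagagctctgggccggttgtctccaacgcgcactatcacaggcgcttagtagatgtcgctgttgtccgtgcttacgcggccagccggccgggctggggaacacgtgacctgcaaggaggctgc

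TAAT was present 1 time before Hoxa11, 2 times before Hoxd8 and 1 time before Hoxd9, and it was not found before Hoxa13 or Hoxd10. Of the 32851 promoter windows of the table, 50.1% held TAAT on either strand, and of the 24 windows of 22 Hox symbols 16 did, or 66.7%. TTTAT, a core that posterior Hox proteins prefer, was found in none of the 5 stretches, in 9 of the 24 Hox windows (37.5%) and in 31.6% of all windows. The stretch of Hoxa13 was 78% G and C with 26 CpG, that of Hoxd10 69.5% with 18, that of Hoxd9 65.5% with 10, that of Hoxa11 51.5% with 11 and that of Hoxd8 46.5% with 4. The medians over all windows were 51.5% and 4 CpG. A match is a description of these letters and not a site of binding.

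Total counts ran from 7685164 to 42588233 in the 32 libraries. The 8 markers of skeletal muscle fibres summed to 95200 to 193300 CPM (counts scaled to a common, TMM-adjusted library total) in every library, as the tissue label states. The fibres themselves were not separated from other cells, and in such bulk tissue fewer cells of a type and less RNA per cell cannot be told apart. Markers of kidney tubules summed to 60.8 to 80.7 CPM in the 4 wild-type tibialis libraries, with all 14 genes detected in that group, and to 24.2 CPM in healthy gastrocnemius replicate 2. They summed to at most 2.34 CPM in the other libraries. Schwann cell markers summed to 51.9 to 2179 CPM in gastrocnemius, against at most 313 CPM in tibialis and 172 CPM in quadriceps. Gastrocnemius libraries sick replicate 1 and wild-type replicate 3 stood apart from the other gastrocnemius libraries in the HoxD genes, and results of Hoxd8, Hoxd9 and Hoxd10 that rest on them are given with and without them.

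Of the 40 Hox identifiers, 38 had at least 1 count. A filter on low counts (the CPM worth 10 counts at the median library total, reached in at least as many libraries as the smallest group has) passed 26 of them when applied to all 32 libraries. The identifiers that did not pass were mostly those at the 2 ends of the clusters. They included Hoxb1 with 21 counts summed over the 32 libraries, Hoxb2 with 166, Hoxb9 with 183, Hoxb13 with 3, Hoxc12 with 5 and Hoxc13 with 9. In cluster D, Hoxd1 and the first Hoxd4 identifier had 0 counts, the second Hoxd4 identifier 17, Hoxd3 24, Hoxd11 43, Hoxd12 2 and Hoxd13 15. For Hoxd11, 36 of the 43 counts came from gastrocnemius, 6 from tibialis and 1 from quadriceps. For Hoxd13, 13 of the 15 came from quadriceps, and 1 each from tibialis and gastrocnemius.

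Levels were compared between genes per kilobase of annotated exon. Hoxc10, which takes part in the development of the hind limb, stood first in all 3 muscles, with medians of 46.6 CPM per kb in tibialis, 43.4 in quadriceps and 39 in gastrocnemius. Hoxa10, a thigh gene of the same group, was second over all libraries with medians of 6.4 CPM per kb in tibialis, 4.35 in quadriceps and 6.28 in gastrocnemius. The lowest library of Hoxc10 held 27.9 CPM per kb and the highest 58.7. Hoxc9, which acts in the thoracic region, followed with 3.99, 4.88 and 3.75 CPM per kb in tibialis, quadriceps and gastrocnemius. Hoxd8 had medians of 1.83 CPM per kb in tibialis, 4.62 in quadriceps and 14 in gastrocnemius, and ranked far higher in the last muscle than in the first. Cluster B was read at low levels, with Hoxb7, its highest member, at a median of 0.605 CPM per kb. The order of Hoxc10 over the other members held in every library, while Hoxa10 and Hoxc9 had ranges that overlapped.

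**Figure D1:**
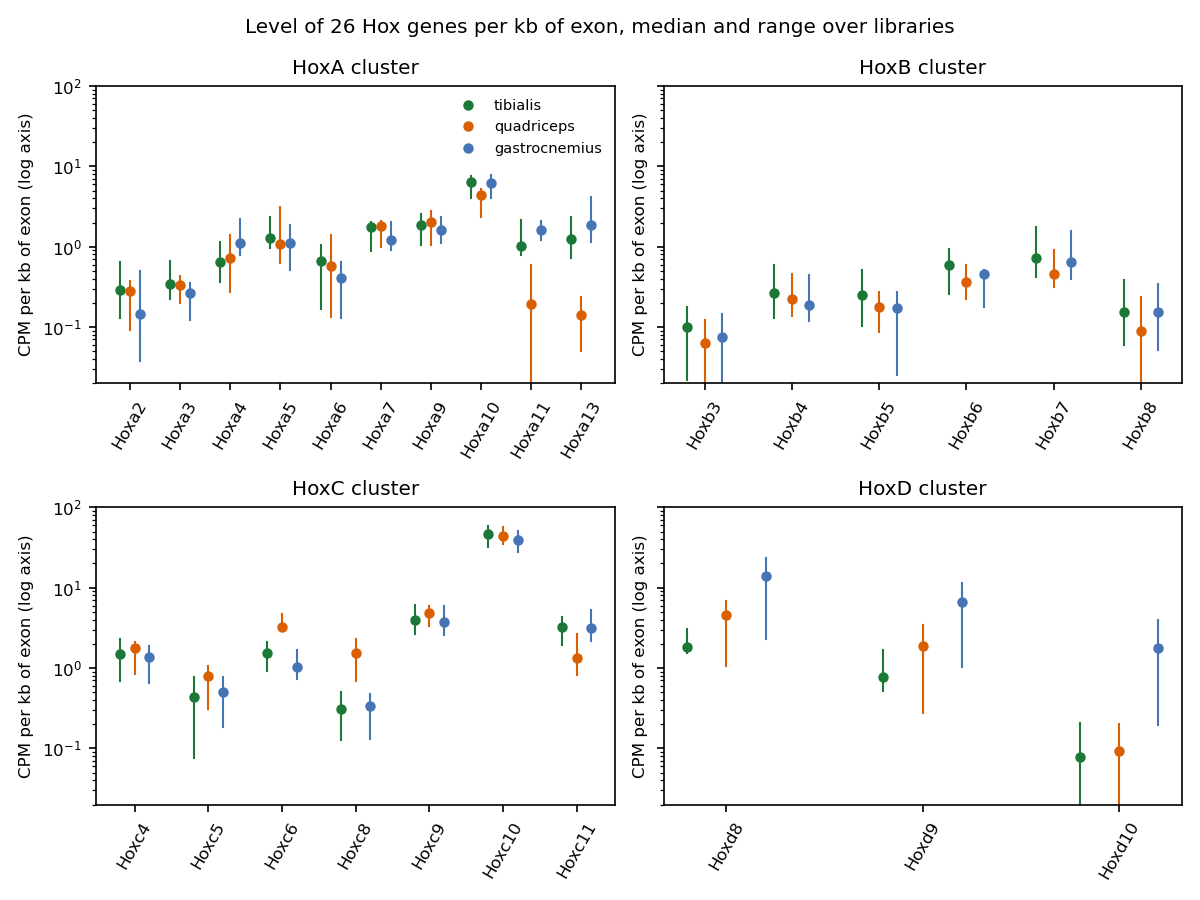
CPM per kb of exon (log axis starting at 0.02, below which values are cut off) of the 26 tested Hox genes, ordered by cluster and position, in tibialis (11 libraries), quadriceps (11) and gastrocnemius (10), with dots for the median and lines from the lowest to the highest library. Hoxc10 stands first in each muscle at 46.6, 43.4 and 39 CPM per kb, and the quadriceps range stands apart at Hoxa11, Hoxa13, Hoxc6 and Hoxc8. Hoxd8 to Hoxd10 have their highest medians in gastrocnemius, with ranges that overlap.

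Summed over its members, cluster C was the most abundant with medians of 115 CPM in tibialis, 119 in quadriceps and 103 in gastrocnemius. Cluster A summed to 49.8, 38.3 and 47.9 CPM and cluster B to 5.99, 3.69 and 4.68 CPM in tibialis, quadriceps and gastrocnemius. Cluster D differed most between muscles, with a median of 7.97 CPM in tibialis (5.63 to 12.7), 17.9 in quadriceps (3.52 to 25.8) and 58.3 in gastrocnemius (9.31 to 96). The summed ranges of cluster D overlapped between all 3 muscles.

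The comparison of muscles addresses whether position in the leg is still visible in adult Hox transcripts. Across the 3 states, the quadriceps was low in the posterior genes Hoxa11, Hoxa13 and Hoxc11 and high in the central genes Hoxc6 and Hoxc8, and the gastrocnemius was high in Hoxd8, Hoxd9 and Hoxd10. A contrast of muscles averaged over the 3 states in a fit of all 32 libraries, chosen after the data were seen, gives the most precise values, and each state is given on its own further on. In this contrast 7 of 26 Hox genes passed an adjusted p of 0.05 between tibialis and quadriceps, where 8.4% of 15229 genes did (limma, Benjamini-Hochberg adjustment over all genes tested). Between tibialis and gastrocnemius 6 of 26 passed, where 6.43% of all genes did. Between quadriceps and gastrocnemius 8 of 26 passed, where 0.755% of all genes did. The wild-type tibialis libraries carry the kidney tubule markers given above, and the part of kidney transcripts in the 8.4% and 6.43% was not tested. The median log2 fold change of the 26 Hox genes was 0.13, 0.14 and 0.15 in these comparisons, against -0.01, -0.01 and 0.01 over all genes, with calls in both directions in each pair. Without the 4 wild-type tibialis libraries, in a contrast of the 2 knock-in states, 5 were called between tibialis and quadriceps (Hoxa11, Hoxa13, Hoxc6, Hoxc8 and Hoxc11), 3 between tibialis and gastrocnemius (Hoxd8, Hoxd9 and Hoxd10) and 4 between quadriceps and gastrocnemius (Hoxa11, Hoxa13, Hoxc6 and Hoxc8). The shares of all genes given above belong to the fit of all 32 libraries and do not carry over to these counts. The share called without the 4 libraries is not given here, so whether these counts exceed it is not shown.

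Hoxa13 (ENSMUSG00000038203, chromosome 6, 52257694 to 52260880, minus strand), the foot gene of cluster A, was at 1.81 to 5.75 CPM in tibialis (median 3.07), 0.125 to 0.579 CPM in quadriceps (median 0.35) and 2.8 to 10.3 CPM in gastrocnemius (median 4.66). The quadriceps range lay below those of both lower leg muscles without overlap. The log2 fold change was 3.32 ± 0.26 for tibialis over quadriceps (estimate ± SE, limma adjusted p = 9.69e-09) and -3.91 ± 0.26 for quadriceps over gastrocnemius (adjusted p = 1.78e-10). Between the lower leg muscles the difference was small, at -0.59 ± 0.15 for tibialis over gastrocnemius (adjusted p = 0.0167), and it did not pass without the 2 gastrocnemius libraries of low HoxD level (adjusted p = 0.0605), without a filter (0.0782) or with limma-trend, a fit without weights (0.108). Nor did it pass without the 4 wild-type tibialis libraries (adjusted p = 0.267). In total the 11 quadriceps libraries held 64 reads of Hoxa13, against 705 in the 11 tibialis libraries and 933 in the 10 gastrocnemius libraries.

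Hoxa11 (ENSMUSG00000038210, chromosome 6, 52242106 to 52245810, minus strand), which shapes the lower leg and forearm, followed the same order of muscles. It was at 1.81 to 4.96 CPM in tibialis (median 2.33), 0 to 1.37 CPM in quadriceps (median 0.438) and 2.8 to 4.83 CPM in gastrocnemius (median 3.69). Again no quadriceps library reached the lowest library of the other muscles. The log2 fold change was 3.14 ± 0.32 for tibialis over quadriceps (limma adjusted p = 5.41e-07) and -3.55 ± 0.32 for quadriceps over gastrocnemius (adjusted p = 4.82e-08). Hoxa11 shares 800 exon bases with its antisense RNA Hoxa11os, and whether the counting used strand is not given, so reads of the 2 genes may not be separated. Hoxa11os, counted on its own, was at 0.881 to 3.02 CPM in tibialis, 0 to 0.565 CPM in quadriceps and 0.938 to 3.81 CPM in gastrocnemius. It moved as Hoxa11 did, by 3.53 for tibialis over quadriceps (adjusted p = 1.48e-05) and -3.80 for quadriceps over gastrocnemius (adjusted p = 4.48e-06) on the log2 scale.

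Hoxc11 (ENSMUSG00000001656, chromosome 15, 102954427 to 102957708, plus strand), the group 11 gene of cluster C, differed less. It was at 3.96 to 8.78 CPM in tibialis (median 6.58), 1.66 to 5.41 CPM in quadriceps (median 2.67) and 4.36 to 10.6 CPM in gastrocnemius (median 6.32). The ranges of the muscles overlapped. The log2 fold change was 1.09 ± 0.18 for tibialis over quadriceps (limma adjusted p = 0.000684) and -1.21 ± 0.18 for quadriceps over gastrocnemius (adjusted p = 0.000441, and 0.107 without the 4 wild-type tibialis libraries). Hotair, a long non-coding RNA transcribed from the antisense strand of cluster C next to Hoxc11, went the same way by 1.70 (adjusted p = 0.00297) and -2.43 (adjusted p = 0.000113). Hoxa10 was at 13 to 24.7 CPM in tibialis (median 20.9), 7.6 to 17.2 CPM in quadriceps (median 14.2) and 13.1 to 25.7 CPM in gastrocnemius (median 20.5), and passed only for tibialis over quadriceps (0.52 ± 0.12, adjusted p = 0.0103). Its difference between quadriceps and gastrocnemius had an adjusted p of 0.0788. Without the 4 wild-type tibialis libraries the call of Hoxa10 for tibialis over quadriceps was lost (adjusted p = 0.0705).

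Hoxc8 (ENSMUSG00000001657, chromosome 15, 102990607 to 102994111, plus strand), which patterns the thorax and the motor neurons of the brachial cord, ran in the other direction. It was at 0.357 to 1.44 CPM in tibialis (median 0.869), 1.93 to 6.5 CPM in quadriceps (median 4.36) and 0.372 to 1.36 CPM in gastrocnemius (median 0.948). Every quadriceps library lay above every library of the other muscles. The log2 fold change was -2.30 ± 0.22 for tibialis over quadriceps (limma adjusted p = 3.06e-07) and 2.14 ± 0.23 for quadriceps over gastrocnemius (adjusted p = 2.78e-06).

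Hoxc6 (ENSMUSG00000001661, chromosome 15, 102998257 to 103011881, plus strand), a neighbour of Hoxc8 that acts at the level of the forelimb and thorax, was at 2.19 to 5.12 CPM in tibialis (median 3.67), 6.85 to 11.3 CPM in quadriceps (median 7.85) and 1.74 to 3.99 CPM in gastrocnemius (median 2.47). The quadriceps again lay above both other muscles without overlap. The log2 fold change was -1.17 ± 0.12 for tibialis over quadriceps (limma adjusted p = 6.04e-07) and 1.65 ± 0.14 for quadriceps over gastrocnemius (adjusted p = 1.17e-08). For tibialis over gastrocnemius it was 0.48 ± 0.14 (adjusted p = 0.0409), a call lost when any of 14 of the 32 libraries was left out and lost without the 2 gastrocnemius libraries of low HoxD level (adjusted p = 0.0691) or without a filter (0.071). That call was also lost without the 4 wild-type tibialis libraries (adjusted p = 0.493). Hoxc5, the next gene toward the anterior end of the cluster, was lower in tibialis than in quadriceps by -0.99 ± 0.21 on the log2 scale (adjusted p = 0.00505, and 0.0545 without the 4 wild-type tibialis libraries). Hoxc4, Hoxc9 and Hoxc10 passed in no comparison of muscles, with log2 fold changes between tibialis and quadriceps of -0.12 for Hoxc4 (adjusted p = 0.707) and -0.01 for Hoxc10 (adjusted p = 0.986), so the difference did not extend over the whole cluster.

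**Figure D2:**
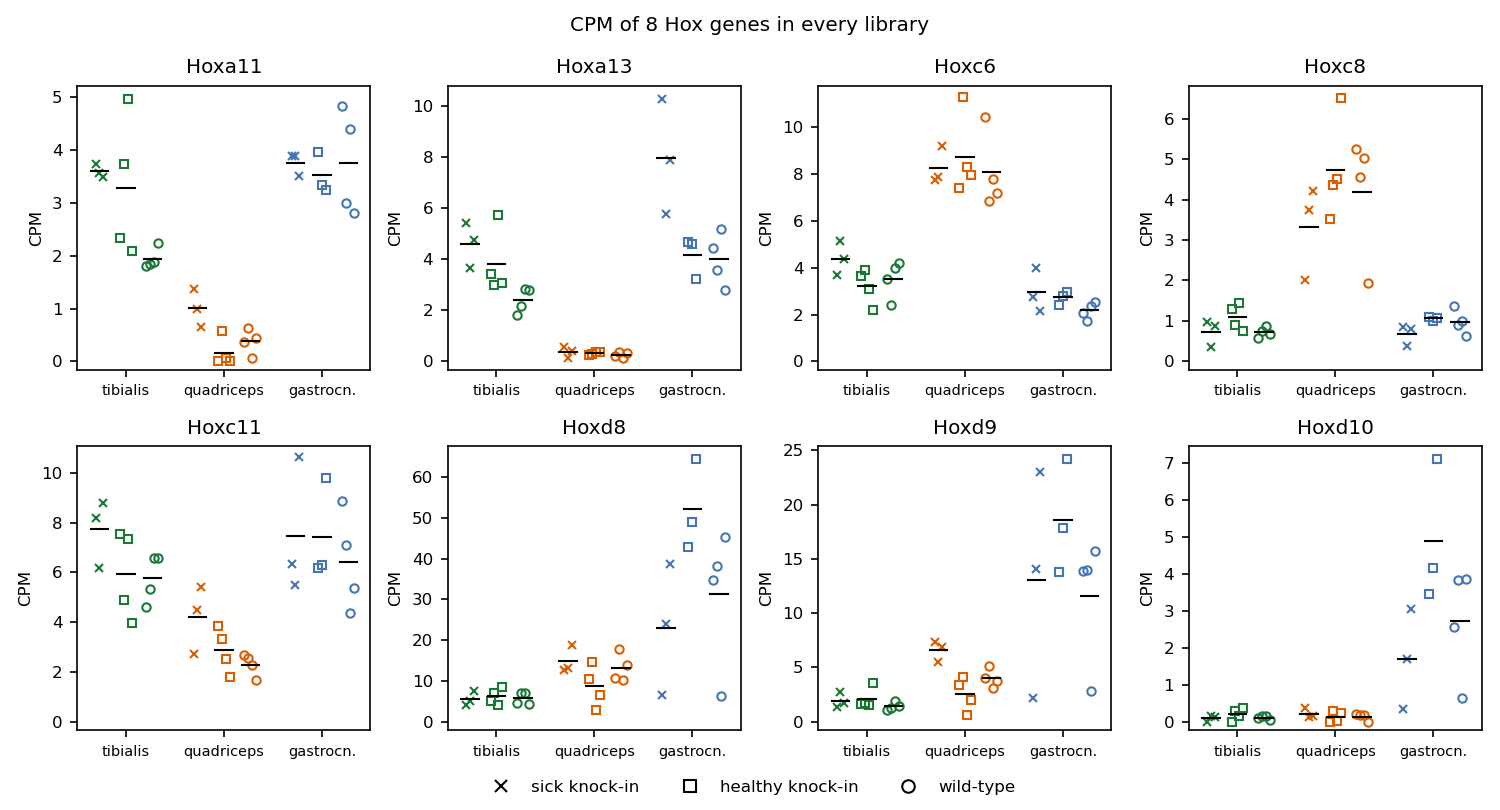
CPM of Hoxa11, Hoxa13, Hoxc6, Hoxc8, Hoxc11, Hoxd8, Hoxd9 and Hoxd10 in each of the 32 libraries, by muscle and by state (crosses sick, squares healthy, circles wild type), each point being 1 library and each black bar a group mean. Quadriceps libraries of Hoxa13 lie at 0.125 to 0.579 CPM, below all others, and those of Hoxc8 at 1.93 to 6.5 CPM, above all others.

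A complete separation of 1 muscle from both others was rare among all genes. Of 15229 genes, 6 (0.0394%) had all quadriceps libraries above or all below the 21 libraries of the other 2 muscles, and 4 of these 6 were Hoxa11, Hoxa13, Hoxc6 and Hoxc8. The remaining 2 were Hoxa11os and Tbx5, the forelimb identity factor, at 0.613 to 2.34 CPM in quadriceps and at most 0.514 CPM elsewhere. The tibialis was separated in this way for 5 genes (0.0328%), none of them a Hox gene, among them Sim1, higher in tibialis, and En1, the gene of a ventral limb factor, lower there. The gastrocnemius was separated for 1 gene (0.00657%), Tbx1, a regulator of head and neck muscle, at 0.338 to 13.5 CPM in gastrocnemius and 20.8 to 163 CPM in the other muscles. No HoxD gene was separated over all libraries: sick gastrocnemius replicate 1 reached into the range of the other muscles for Hoxd8, Hoxd9 and Hoxd10, and wild-type gastrocnemius replicate 3 did so for Hoxd8 and Hoxd9.

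Hoxd8 (ENSMUSG00000027102, chromosome 2, 74704615 to 74707933, plus strand), a central gene of cluster D, was at 4.16 to 8.47 CPM in tibialis (median 5.01), 2.87 to 18.7 CPM in quadriceps (median 12.7) and 6.4 to 64.5 CPM in gastrocnemius (median 38.5). Hoxd9 (ENSMUSG00000043342, chromosome 2, 74697727 to 74700208, plus strand), a group 9 gene of the trunk and limb, was at 1.1 to 3.58 CPM in tibialis (median 1.65), 0.587 to 7.37 CPM in quadriceps (median 4.06) and 2.19 to 24.2 CPM in gastrocnemius (median 14). Hoxd10 (ENSMUSG00000050368, chromosome 2, 74691924 to 74695105, plus strand), known for its part in lumbar motor neurons and the hind limb, was at 0 to 0.372 CPM in tibialis (median 0.144), 0 to 0.368 CPM in quadriceps (median 0.17) and 0.353 to 7.1 CPM in gastrocnemius (median 3.25). For these 3 genes most gastrocnemius libraries lay above the other muscles, and the ranges still overlapped. Summed counts of Hoxd10 were 30 in tibialis, 33 in quadriceps and 516 in gastrocnemius. Hoxd10 fell under the filter in the fits of tibialis and of quadriceps alone. Wherever it was tested between muscles, it had passed the filter through its gastrocnemius level. The direction of its difference from gastrocnemius was thus set by the filter, and its calls there are a description.

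The log2 fold change of tibialis over gastrocnemius was -2.31 ± 0.35 for Hoxd8 (limma adjusted p = 0.000264), -2.66 ± 0.42 for Hoxd9 (adjusted p = 0.000423) and -4.14 ± 0.60 for Hoxd10 (adjusted p = 0.000176). For quadriceps over gastrocnemius it was -1.41 ± 0.33 for Hoxd8 (adjusted p = 0.0329), -1.69 ± 0.38 for Hoxd9 (adjusted p = 0.0276) and -3.79 ± 0.57 for Hoxd10 (adjusted p = 0.000396). The calls against tibialis held whichever single library was left out, while the call against quadriceps was lost for Hoxd8 in 13 and for Hoxd9 in 8 of the 32 omissions, and for both without a filter (adjusted p = 0.137 and 0.0735). Without the 4 wild-type tibialis libraries Hoxd8, Hoxd9 and Hoxd10 all failed to pass against quadriceps (adjusted p = 0.442, 0.442 and 0.0705). Hoxd10 shares 104 exon bases with the gene model Gm28309.

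The 2 low gastrocnemius libraries were sick replicate 1, with 6.49 CPM of Hoxd8, 2.19 of Hoxd9 and 0.353 of Hoxd10, and wild-type replicate 3, with 6.4, 2.83 and 0.649 CPM. The other 8 gastrocnemius libraries held 24 to 64.5 CPM of Hoxd8, 13.8 to 24.2 of Hoxd9 and 1.7 to 7.1 of Hoxd10, and the other muscles reached at most 18.7, 7.37 and 0.372 CPM. The 2 were singled out by these values, so that the other 8 lie above every tibialis and quadriceps library is a description. Tbx1 was at 13.5 CPM in sick replicate 1 and 11.5 CPM in wild-type replicate 3, the 2 highest values of the gastrocnemius (0.338 to 5.2 CPM in the other 8) and under the 20.8 CPM of the lowest library of another muscle. En1 was at 2.47 CPM in sick replicate 1, within the quadriceps range of 2.05 to 3.68 CPM and below every other gastrocnemius library (4.04 to 8.24 CPM), and at 4.92 CPM in wild-type replicate 3. Sim1 was at 1.76 CPM in sick replicate 1, above the other gastrocnemius libraries and within the range of the quadriceps, and at 0.501 CPM in wild-type replicate 3. Hoxa13 was at 10.3 and 5.19 CPM in the same 2 libraries, above every quadriceps library. Their Schwann cell markers summed to 448 CPM in sick replicate 1 and 1323 CPM in wild-type replicate 3, and Tbx15, a factor of fast fibres, was at 648 and 374 CPM, against 174 to 317 CPM in the other 8. The part of these genes in the low values was not tested.

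Without both libraries the same contrast gave log2 fold changes of tibialis over gastrocnemius of -2.79 for Hoxd8, -3.22 for Hoxd9 and -4.66 for Hoxd10. For quadriceps over gastrocnemius it gave -1.89, -2.26 and -4.31 for Hoxd8, Hoxd9 and Hoxd10. Because the libraries were picked for low levels of these genes, their folds had to grow, and no p is given for them. With all 32 libraries neither Hoxd8 nor Hoxd9 passed between tibialis and quadriceps (-0.90, limma adjusted p = 0.131, and -0.97, adjusted p = 0.216), and their ranges in these muscles overlapped. The number of Hox genes called without both libraries, these 3 included, was 9 between tibialis and quadriceps, 6 between tibialis and gastrocnemius and 8 between quadriceps and gastrocnemius. The libraries were picked by 3 of the genes counted, so these numbers support nothing further. The share of all genes called in that fit is not given here.

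**Figure D3:**
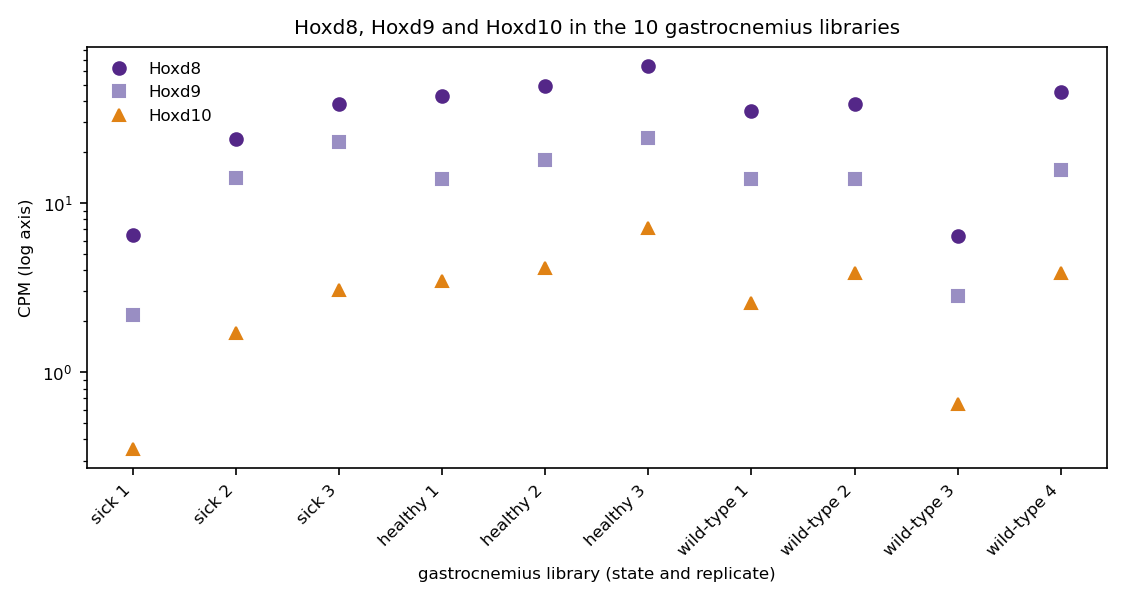
CPM (log axis) of Hoxd8 (circles), Hoxd9 (squares) and Hoxd10 (triangles) in each of the 10 gastrocnemius libraries, named by state and replicate. Sick replicate 1 and wild-type replicate 3 of the gastrocnemius lie at 6.49 and 6.4 CPM of Hoxd8, against 24 to 64.5 CPM in the other 8 gastrocnemius libraries.

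Hoxd3os1, a non-coding RNA of cluster D, was lower by -1.14 in tibialis than in gastrocnemius (limma adjusted p = 0.0179) and by -1.47 in quadriceps than in gastrocnemius (adjusted p = 0.0238) on the log2 scale. Its lowest gastrocnemius values were 0.423 CPM in sick replicate 1 and 0.531 CPM in wild-type replicate 3, within the range of the other muscles. For Hoxd3os1 no fit without these libraries or without the wild-type tibialis libraries is given. Hoxa4, a central gene of cluster A, was at 0.573 to 1.84 CPM in tibialis (median 1.03), 0.438 to 2.24 CPM in quadriceps (median 1.14) and 1.26 to 3.53 CPM in gastrocnemius (median 1.76). It was lower in tibialis than in gastrocnemius by -0.91 ± 0.20 (adjusted p = 0.00557, and 0.145 without the 4 wild-type tibialis libraries), and its ranges overlapped. None of the 6 genes of cluster B that passed the filter, Hoxb3 to Hoxb8, was called between muscles in this contrast, with the largest fold change at 0.99 for Hoxb8 in tibialis over quadriceps (adjusted p = 0.121). Hoxa2, Hoxa3, Hoxa5, Hoxa6, Hoxa7 and Hoxa9 passed in no comparison of muscles either, at folds up to 0.92 for Hoxa6 in tibialis over gastrocnemius (adjusted p = 0.112).

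By position along the clusters, none of the 3 tested genes of groups 1 to 3 was called in any muscle pair. Of the 14 tested genes of groups 4 to 8, 0 rose and 3 fell in tibialis against quadriceps, 1 rose and 2 fell in tibialis against gastrocnemius, and 2 rose and 1 fell in quadriceps against gastrocnemius. Of the 9 tested genes of groups 9 to 13, 4 rose and 0 fell in tibialis against quadriceps, 0 rose and 3 fell in tibialis against gastrocnemius, and 0 rose and 5 fell in quadriceps against gastrocnemius. The median log2 fold change of these 9 genes in quadriceps over gastrocnemius was -1.21, against 0.01 over all genes. Of all genes 8.4%, 6.43% and 0.755% were called in these pairs, in either direction. Some calls counted here were lost without the 4 wild-type tibialis libraries. They were Hoxa10 and Hoxc5 in the first pair, Hoxa4, Hoxa13 and Hoxc6 in the second and Hoxc11 and Hoxd8 to Hoxd10 in the third.

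**Figure D4:**
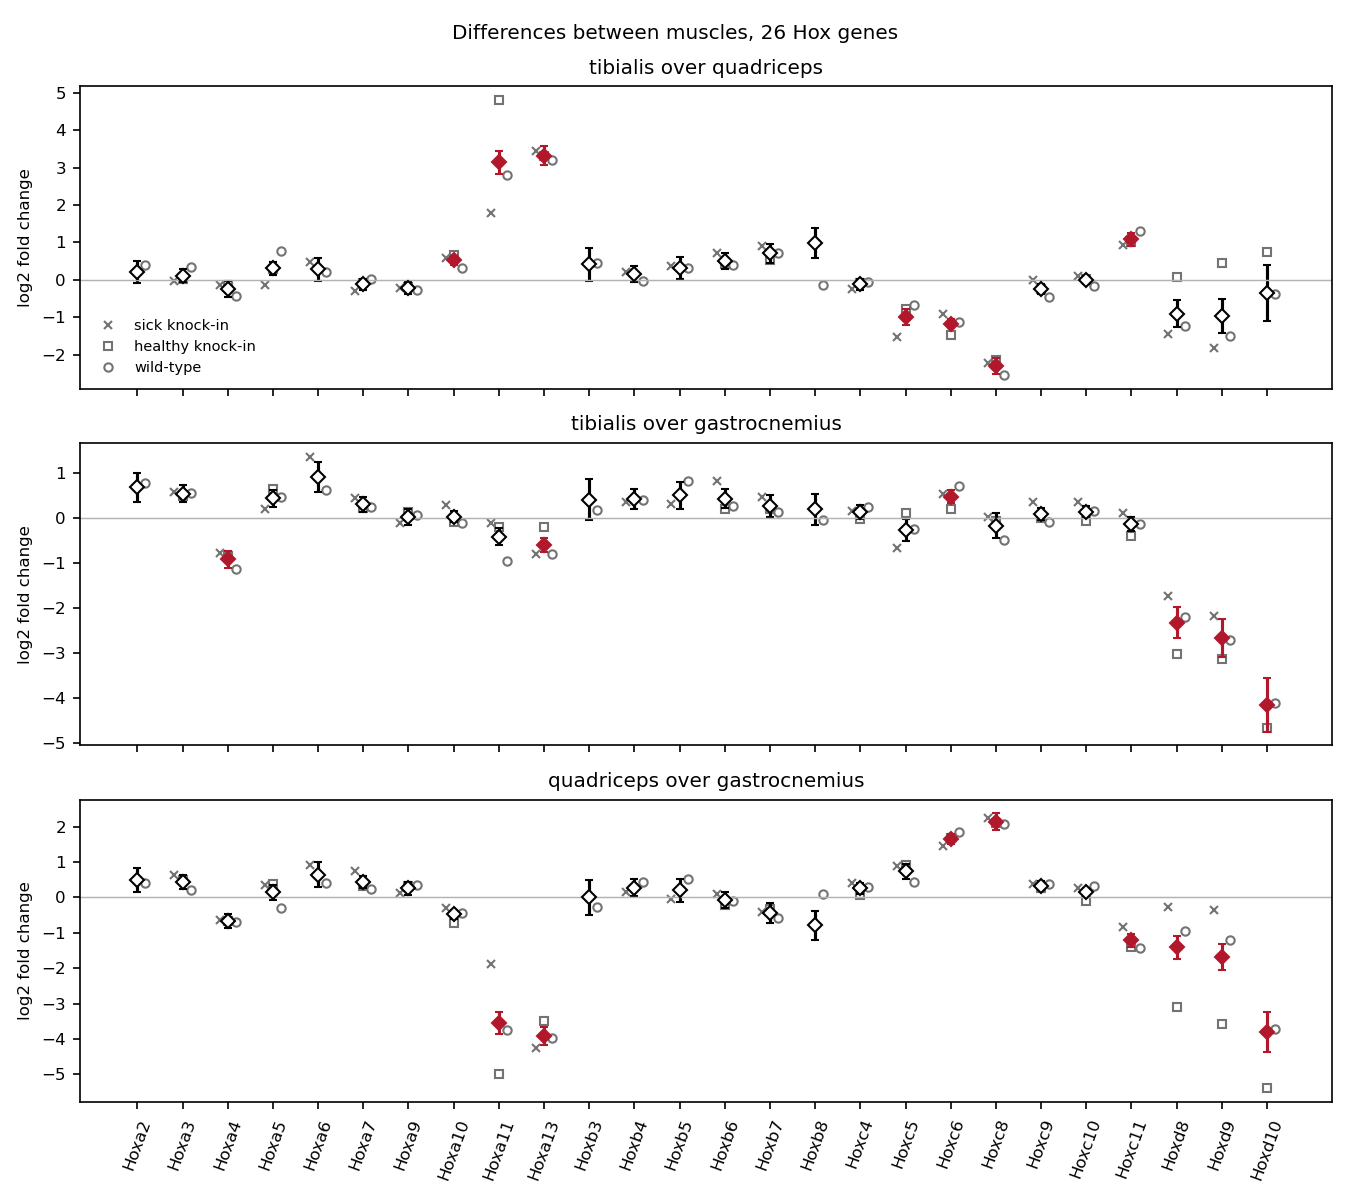
Log2 fold change of each tested Hox gene, by cluster and position, for tibialis over quadriceps, tibialis over gastrocnemius and quadriceps over gastrocnemius, with diamonds and bars for the mean of the 3 states ± SE (red for an adjusted p under 0.05) and grey symbols for each state alone. Hoxa11 and Hoxa13 reach 3.14 and 3.32 in tibialis over quadriceps, and Hoxd10 reaches -4.14 in tibialis over gastrocnemius.

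Among other limb factors, Tbx5 differed by -3.63 between tibialis and quadriceps (limma adjusted p = 1.2e-05) and by 4.60 between quadriceps and gastrocnemius (adjusted p = 4.28e-06) on the log2 scale. En1 differed by -2.70 in tibialis over quadriceps (adjusted p = 3.48e-07), by -3.83 in tibialis over gastrocnemius (adjusted p = 9.94e-11) and by -1.12 in quadriceps over gastrocnemius (adjusted p = 0.000204). Osr2, a factor of joint development, was higher in tibialis by 1.61 over quadriceps (adjusted p = 5.75e-05) and by 1.51 over gastrocnemius (adjusted p = 0.000327). Pitx1 and Tbx4, which specify the hind limb, were not called in any muscle pair. Cell markers also moved between muscles: in tibialis against quadriceps 5 of 12 fibro-adipogenic progenitor markers and 8 of 10 macrophage markers were lower and 7 of 10 endothelial markers higher, where 8.4% of all genes were called in either direction. In tibialis against gastrocnemius 8 of 10 Schwann cell markers were lower, where 6.43% of all genes were called, and in quadriceps against gastrocnemius 4 of 10 were lower, where 0.755% were. The part of these cells in the Hox differences was not tested.

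Each state on its own gave fewer calls. In wild-type mice 5 of 26 Hox genes differed between tibialis and quadriceps, where 5.67% of 14708 genes did, and the median fold change was -0.01 for the Hox genes and 0.00 for all genes. The 5.67% includes kidney transcripts of the tibialis libraries, and Kap, Slc34a1 and Umod had the lowest p of all genes. Hoxa13 was at 1.81, 2.17, 2.82 and 2.79 CPM in wild-type tibialis (mean 2.40 ± 0.50, SD, n = 4), 0.214, 0.368, 0.148 and 0.35 CPM in wild-type quadriceps (mean 0.27 ± 0.107) and 4.46, 3.57, 5.19 and 2.8 CPM in wild-type gastrocnemius (mean 4.01 ± 1.04). The 4 quadriceps libraries lay below all others. Its log2 fold change was 3.20 ± 0.39 in tibialis over quadriceps (limma adjusted p = 0.000514) and -3.98 ± 0.37 in quadriceps over gastrocnemius (adjusted p = 0.000346). Hoxa11 was at 1.81, 1.84, 1.88 and 2.23 CPM in wild-type tibialis, 0.374, 0.623, 0.0742 and 0.438 CPM in wild-type quadriceps and 4.83, 2.99, 4.39 and 2.8 CPM in wild-type gastrocnemius. These 3 sets did not overlap, and the fold change was 2.81 ± 0.51 in tibialis over quadriceps (adjusted p = 0.00834) and -3.75 ± 0.48 in quadriceps over gastrocnemius (adjusted p = 0.00214).

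Hoxc8 was at 0.573, 0.752, 0.869 and 0.678 CPM in wild-type tibialis, 5.24, 4.56, 5.02 and 1.93 CPM in wild-type quadriceps and 1.36, 0.894, 1 and 0.63 CPM in wild-type gastrocnemius. Its fold change was -2.54 ± 0.37 in tibialis over quadriceps (limma adjusted p = 0.00179) and 2.06 ± 0.32 in quadriceps over gastrocnemius (adjusted p = 0.00683). Hoxc6 was at 3.52, 2.42, 3.98 and 4.19 CPM in wild-type tibialis, 10.4, 6.85, 7.79 and 7.18 CPM in wild-type quadriceps and 2.08, 1.74, 2.36 and 2.52 CPM in wild-type gastrocnemius. For both genes the quadriceps libraries stood above all libraries of the other muscles. The fold change of Hoxc6 was -1.13 ± 0.20 in tibialis over quadriceps (adjusted p = 0.00639) and 1.85 ± 0.20 in quadriceps over gastrocnemius (adjusted p = 0.000582). Hoxc11 was at 4.62, 5.35, 6.59 and 6.58 CPM in wild-type tibialis, 2.67, 2.55, 2.28 and 1.66 CPM in wild-type quadriceps and 8.85, 7.1, 4.36 and 5.39 CPM in wild-type gastrocnemius. The quadriceps was the lowest, with fold changes of 1.31 ± 0.26 in tibialis over quadriceps (adjusted p = 0.0128) and -1.43 ± 0.25 in quadriceps over gastrocnemius (adjusted p = 0.017). The first call of Hoxc11 was lost without wild-type quadriceps replicate 3 (adjusted p = 0.0565), and the second without that library (0.0999), without wild-type quadriceps replicate 2 (0.0681) or without wild-type gastrocnemius replicate 2 (0.0532).

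Between wild-type quadriceps and gastrocnemius these 5 of 26 genes were called, where 1.07% of all genes were. Without wild-type gastrocnemius replicate 3, which stands out by its low HoxD values, the number was 8, which supports nothing further. Between wild-type tibialis and gastrocnemius 1 of 26 Hox genes was called, where 2.58% of all genes were. That share too includes kidney transcripts, and Kap and Slc34a1 had the lowest p of all genes. Hoxd10 was at 0.0881, 0.167, 0.145 and 0.0399 CPM in wild-type tibialis and 2.55, 3.84, 0.649 and 3.85 CPM in wild-type gastrocnemius, without overlap, and differed by -4.11 ± 0.94 (limma adjusted p = 0.0386). Hoxd9 was at 1.1, 1.25, 1.88 and 1.43 CPM in wild-type tibialis and 13.9, 13.9, 2.83 and 15.7 CPM in wild-type gastrocnemius (-2.70 ± 0.66, adjusted p = 0.0503). Hoxd8 was at 4.58, 6.94, 6.95 and 4.38 CPM in wild-type tibialis and 34.8, 38.3, 6.4 and 45.3 CPM in wild-type gastrocnemius (-2.18 ± 0.59, adjusted p = 0.0761). In each gene the third gastrocnemius library was the low one. Without it all 3 passed, which supports nothing further, since that library stands out by these same values. The call of Hoxd10 was lost in 9 of the 12 omissions of 1 library, with an adjusted p of up to 0.124.

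In healthy knock-in mice few genes of any kind were called between muscles. Between tibialis and quadriceps 4 of 20 tested Hox genes were called, where 0.0781% of 14077 genes (11 in all) were. Hoxa11 was at 2.33, 3.73, 4.96 and 2.09 CPM in healthy tibialis and 0, 0.568, 0.0618 and 0 CPM in healthy quadriceps (4.82 ± 0.70, limma adjusted p = 0.0377). Hoxa13 was at 3.43, 3, 5.75 and 3.07 CPM in healthy tibialis and 0.234, 0.284, 0.371 and 0.361 CPM in healthy quadriceps (3.31 ± 0.41, adjusted p = 0.0145). The groups did not overlap in either gene. Hoxc6 was at 3.64, 3.9, 3.09 and 2.19 CPM in healthy tibialis and 7.38, 11.3, 8.31 and 7.94 CPM in healthy quadriceps (-1.47 ± 0.20, adjusted p = 0.0281). Hoxc8 was at 1.3, 0.899, 1.44 and 0.745 CPM in healthy tibialis and 3.51, 4.36, 4.51 and 6.5 CPM in healthy quadriceps (-2.15 ± 0.26, adjusted p = 0.011). With the replicate number as a block, which the data allow as a pairing in these mice, Hoxa10 and Hoxc11 passed as well, for 6 genes.

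Between healthy tibialis and gastrocnemius 3 of 20 Hox genes were called, where 0.384% of all genes were, and they were Hoxd8, Hoxd9 and Hoxd10. Hoxd8 was at 5.01, 7.15, 4.17 and 8.47 CPM in healthy tibialis and 42.8, 49 and 64.5 CPM in healthy gastrocnemius (-3.02 ± 0.42, limma adjusted p = 0.0185). Hoxd9 was at 1.65, 1.71, 1.51 and 3.58 CPM in healthy tibialis and 13.8, 17.9 and 24.2 CPM in healthy gastrocnemius (-3.12 ± 0.49, adjusted p = 0.0314). Every healthy gastrocnemius library lay above every healthy tibialis library. Hoxd10 was at 0, 0.3, 0.144 and 0.372 CPM in healthy tibialis and 3.45, 4.15 and 7.1 CPM in healthy gastrocnemius (-4.66 ± 0.73, adjusted p = 0.0293), again without overlap.

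Between healthy quadriceps and gastrocnemius 7 of 20 Hox genes were called, where 0.071% of all genes were. All genes called numbered 10, and the other 3 were Tbx1, Aldh1a2, an enzyme of retinoic acid synthesis, and En1. The Hox genes were Hoxa11, Hoxa13, Hoxc6, Hoxc8, Hoxd8, Hoxd9 and Hoxd10, at adjusted p between 0.0338 for Hoxa13 and 0.0429 for Hoxd9. Healthy gastrocnemius held 3.96, 3.34 and 3.24 CPM of Hoxa11 and 4.7, 4.62 and 3.24 CPM of Hoxa13. It held 2.42, 2.81 and 2.97 CPM of Hoxc6 and 1.1, 1 and 1.08 CPM of Hoxc8. Healthy quadriceps held 10.5, 14.6, 2.87 and 6.62 CPM of Hoxd8, 3.4, 4.17, 0.587 and 2.05 CPM of Hoxd9 and 0, 0.284, 0.0309 and 0.241 CPM of Hoxd10. All 7 genes had groups without overlap. The replicate block kept 5 of them and lost Hoxd8 and Hoxd9.

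The healthy calls lay close to the threshold. Their number fell to between 0 and 3 for tibialis against quadriceps, 0 and 3 for tibialis against gastrocnemius and 0 and 2 for quadriceps against gastrocnemius when 1 library was left out. For tibialis against quadriceps, 3 remained only without tibialis replicates 2 or 4 or quadriceps replicate 4. For tibialis against gastrocnemius the number stayed within 1.5 times only without gastrocnemius replicate 2 or any 1 of the quadriceps libraries. For quadriceps against gastrocnemius every one of the 11 omissions lowered it. Limma-trend called 1 between healthy tibialis and gastrocnemius and 3 between healthy quadriceps and gastrocnemius.

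In sick knock-in mice 0 of 22 tested Hox genes passed in each muscle pair, as did 0% of the 13768 genes for tibialis against quadriceps, 0% for tibialis against gastrocnemius and 0% for quadriceps against gastrocnemius (limma). At an unadjusted p under 0.05, 9 Hox genes were counted between tibialis and quadriceps, 5 between tibialis and gastrocnemius and 6 between quadriceps and gastrocnemius. Of all genes 6.61%, 6.96% and 1.84% reached it in these pairs. Limma-trend called 0, 0 and 1, the last being Hoxa13. Hoxa13 was at 5.45, 3.65 and 4.77 CPM in sick tibialis, 0.579, 0.125 and 0.404 CPM in sick quadriceps and 10.3, 5.79 and 7.91 CPM in sick gastrocnemius. The sick quadriceps libraries lay below the others here too, with log2 fold changes of 3.45 ± 0.56 in tibialis over quadriceps (adjusted p = 0.235) and -4.24 ± 0.55 in quadriceps over gastrocnemius (adjusted p = 0.395). With the replicate number as a block, Hoxa13 passed between tibialis and quadriceps. Hoxc8 was at 0.98, 0.357 and 0.873 CPM in sick tibialis, 2, 3.74 and 4.2 CPM in sick quadriceps and 0.846, 0.372 and 0.791 CPM in sick gastrocnemius. Hoxc6 was at 3.67, 5.12 and 4.36 CPM in sick tibialis, 7.74, 7.85 and 9.21 CPM in sick quadriceps and 2.75, 3.99 and 2.15 CPM in sick gastrocnemius. In both genes the 3 quadriceps libraries were the highest.

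A test of whether the differences between muscles depend on the state called 0 of 26 Hox genes, where 0.295% of 15229 genes were called (limma, F test over 4 interaction terms). Limma-trend called 0 as well. Hoxa11 came nearest, with an unadjusted p of 0.000498 and an adjusted p of 0.143, and it passed without wild-type quadriceps replicate 3 or without healthy quadriceps replicate 2. Hoxd9 had an unadjusted p of 0.0177 and Hoxd8 of 0.0232. The sick tibialis held 3.73, 3.57 and 3.49 CPM of Hoxa11 and the sick quadriceps 1.37, 0.997 and 0.646 CPM, so the log2 fold change of tibialis over quadriceps was 1.79 in sick mice, against 4.82 in healthy and 2.81 in wild-type mice.

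The comparison of states asks whether Hox transcripts differ in sick muscle. In sick against wild-type tibialis 2 of 25 tested Hox genes rose, where 18.1% of 14520 genes changed in either direction. In sick against wild-type quadriceps 0 of 17 did, where 18% of 13799 genes changed, and in sick against wild-type gastrocnemius 1 rose and 1 fell of 21, where 14.7% of 14155 genes changed. The Hox genes thus passed at no higher rate than genes in general. The 18.1% in tibialis includes kidney tubule markers such as Umod, Slc12a1 and Slc34a1, which were lower in sick mice. Unadjusted p under 0.05 was reached by 7, 2 and 3 Hox genes in tibialis, quadriceps and gastrocnemius, where 36.2%, 36.6% and 32.9% of all genes reached it. Limma-trend called 0 in quadriceps. Without sick quadriceps replicate 4 the quadriceps count was 3, the genes being Hoxa5, Hoxa11 and Hoxc5. The median log2 fold change of the tested Hox genes was 0.03 in tibialis, 0.08 in quadriceps and -0.06 in gastrocnemius, against -0.04, 0.00 and -0.03 over all genes.

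Hoxa13 was higher in sick than in wild-type mice in the tibialis and in the gastrocnemius. It was at 5.45, 3.65 and 4.77 CPM in sick tibialis (mean 4.62 ± 0.91, SD, n = 3), 3.43, 3, 5.75 and 3.07 CPM in healthy tibialis and 1.81, 2.17, 2.82 and 2.79 CPM in wild-type tibialis (mean 2.40 ± 0.50, n = 4). The sick libraries lay above the wild-type ones and within the range of the healthy ones. Its log2 fold change of sick over wild type was 0.92 ± 0.28 in tibialis (limma adjusted p = 0.0404). In gastrocnemius it was at 10.3, 5.79 and 7.91 CPM in sick mice (mean 8.0 ± 2.25), 4.7, 4.62 and 3.24 CPM in healthy mice and 4.46, 3.57, 5.19 and 2.8 CPM in wild-type mice (mean 4.01 ± 1.04). The sick libraries lay above both other groups, with 0.91 ± 0.27 against wild type (adjusted p = 0.0453) and 0.90 ± 0.31 against healthy mice (adjusted p = 0.0763). The tibialis call was lost in 6 of the 11 omissions of 1 library (adjusted p up to 0.107), namely wild-type replicates 1, 2 and 3, healthy replicate 1 and sick replicates 1 and 4. The gastrocnemius call held in only 2 of 10 omissions, without wild-type replicate 3 or sick replicate 2 (adjusted p up to 0.127 in the others). Without a filter on low counts neither call passed (adjusted p = 0.0642 in tibialis and 0.0946 in gastrocnemius). The 4 wild-type tibialis libraries carry the kidney tubule markers given above, and the part of these in the tibialis difference was not tested.

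Hoxc5, a gene of the neck and upper trunk region, fell in sick gastrocnemius. In gastrocnemius it was at 0.635, 1.12 and 0.565 CPM in sick mice (mean 0.772 ± 0.30, SD, n = 3), 1.61, 1.61 and 1.49 CPM in healthy mice and 2.31, 1.43, 1.77 and 2.38 CPM in wild-type mice (mean 1.97 ± 0.45, n = 4). The sick libraries lay below both other groups, and the log2 fold change of sick over wild type was -1.25 ± 0.36 (limma adjusted p = 0.0391). This call held in only 1 of 10 omissions, without wild-type replicate 2 (adjusted p = 0.0495, and up to 0.118 in the others), and it was lost without a filter (adjusted p = 0.061). In tibialis Hoxc5 was at 0.551, 0.238 and 1.16 CPM in sick mice, 2.33, 1.84, 2.37 and 0.931 CPM in healthy mice and 1.45, 1.34, 1.3 and 2.35 CPM in wild-type mice (-1.64 ± 0.54 for sick over wild type, adjusted p = 0.0541). In quadriceps it was at 0.948, 1.62 and 2.42 CPM in sick mice, 2.93, 2.84, 3.28 and 2.17 CPM in healthy mice and 2.83, 2.86, 2.4 and 2.45 CPM in wild-type mice (-0.80 ± 0.29, adjusted p = 0.076). Neither of these differences passed. Hoxc5 shares 166 exon bases with Hoxc10, which is read at a much higher level.

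Hoxc9 was at 14.9, 13.6 and 11.1 CPM in sick tibialis (mean 13.2 ± 1.92, SD, n = 3), 9.95, 6.72, 10.3 and 9.21 CPM in healthy tibialis and 7.58, 6.52, 9.55 and 9.69 CPM in wild-type tibialis (mean 8.33 ± 1.55, n = 4). The sick libraries lay above all others, and the log2 fold change of sick over wild type was 0.66 ± 0.20 (limma adjusted p = 0.0436), a call that held only without wild-type replicate 4, healthy replicate 2 or sick replicate 4 and was lost in the other 8 of 11 omissions (adjusted p up to 0.113) and without a filter (adjusted p = 0.0861). In quadriceps Hoxc9 was at 12.5, 14.5 and 12.8 CPM in sick, 12.9, 10.1, 10.6 and 8.06 CPM in healthy and 11.9, 10.8, 12.2 and 11.8 CPM in wild-type mice. In gastrocnemius it was at 11.9, 9.46 and 9.04 CPM in sick, 7.56, 7.76 and 11.7 CPM in healthy and 14.6, 7.28, 6.25 and 9.17 CPM in wild-type mice. Those differences were small, at 0.18 and 0.20 on the log2 scale against wild type (adjusted p = 0.368 and 0.661).

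In sick against healthy mice 0 of 25 Hox genes were called in tibialis, where 11.3% of all genes were, 1 of 17 in quadriceps, where 17.6% were, and 0 of 21 in gastrocnemius, where 14.1% were. Unadjusted p under 0.05 was reached by 3, 5 and 6 Hox genes in tibialis, quadriceps and gastrocnemius, where 32%, 35.2% and 31.3% of all genes reached it. Limma-trend called 1, 0 and 0, the first being Hoxc5. Hoxc5 also passed in tibialis without healthy replicate 4 or sick replicate 4, the gastrocnemius count was 2 without sick replicate 1, and the quadriceps count was 4 without sick replicate 4. Hoxd9 was at 7.37, 5.48 and 6.86 CPM in sick quadriceps (mean 6.57 ± 0.98, SD, n = 3), 3.4, 4.17, 0.587 and 2.05 CPM in healthy quadriceps (mean 2.55 ± 1.58, n = 4) and 4.06, 5.15, 3.12 and 3.77 CPM in wild-type quadriceps. The sick libraries lay above both other groups, and the log2 fold change of sick over healthy was 2.13 ± 0.53 (limma adjusted p = 0.0229). Against wild type the adjusted p was 0.216. The call was lost without healthy replicate 3, sick replicate 2 or sick replicate 3 (adjusted p up to 0.111), and the lowest fold change among these omissions was 1.08. It was also lost with limma-trend (adjusted p = 0.0503) and in the fit of all 32 libraries (adjusted p = 0.0692). In sick gastrocnemius Hoxd10 was at 0.353, 1.7 and 3.05 CPM, against 3.45, 4.15 and 7.1 CPM in healthy gastrocnemius, and Hoxd9 at 2.19, 14 and 23 CPM, against 13.8, 17.9 and 24.2 CPM. The groups of Hoxd10 did not overlap, but its adjusted p was 0.149.

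Hoxa11 in quadriceps fell under the filter in the fit of that muscle. It was at 1.37, 0.997 and 0.646 CPM in sick, 0, 0.568, 0.0618 and 0 CPM in healthy and 0.374, 0.623, 0.0742 and 0.438 CPM in wild-type quadriceps, so the sick libraries lay above both other groups. The authors' deposited table lists a log2 fold change of 1.51 for sick over wild type (adjusted p = 0.0193) and of 2.86 for sick over healthy (adjusted p = 0.00057) for this gene. In tibialis the log2 fold change of Hoxa11 was 0.87 ± 0.29 for sick over wild type, short of the threshold (limma adjusted p = 0.0573). In gastrocnemius it was at 3.88, 3.88 and 3.5 CPM in sick, 3.96, 3.34 and 3.24 CPM in healthy and 4.83, 2.99, 4.39 and 2.8 CPM in wild-type mice (0.00 ± 0.25 for sick over wild type, adjusted p = 0.999).

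**Figure D5:**
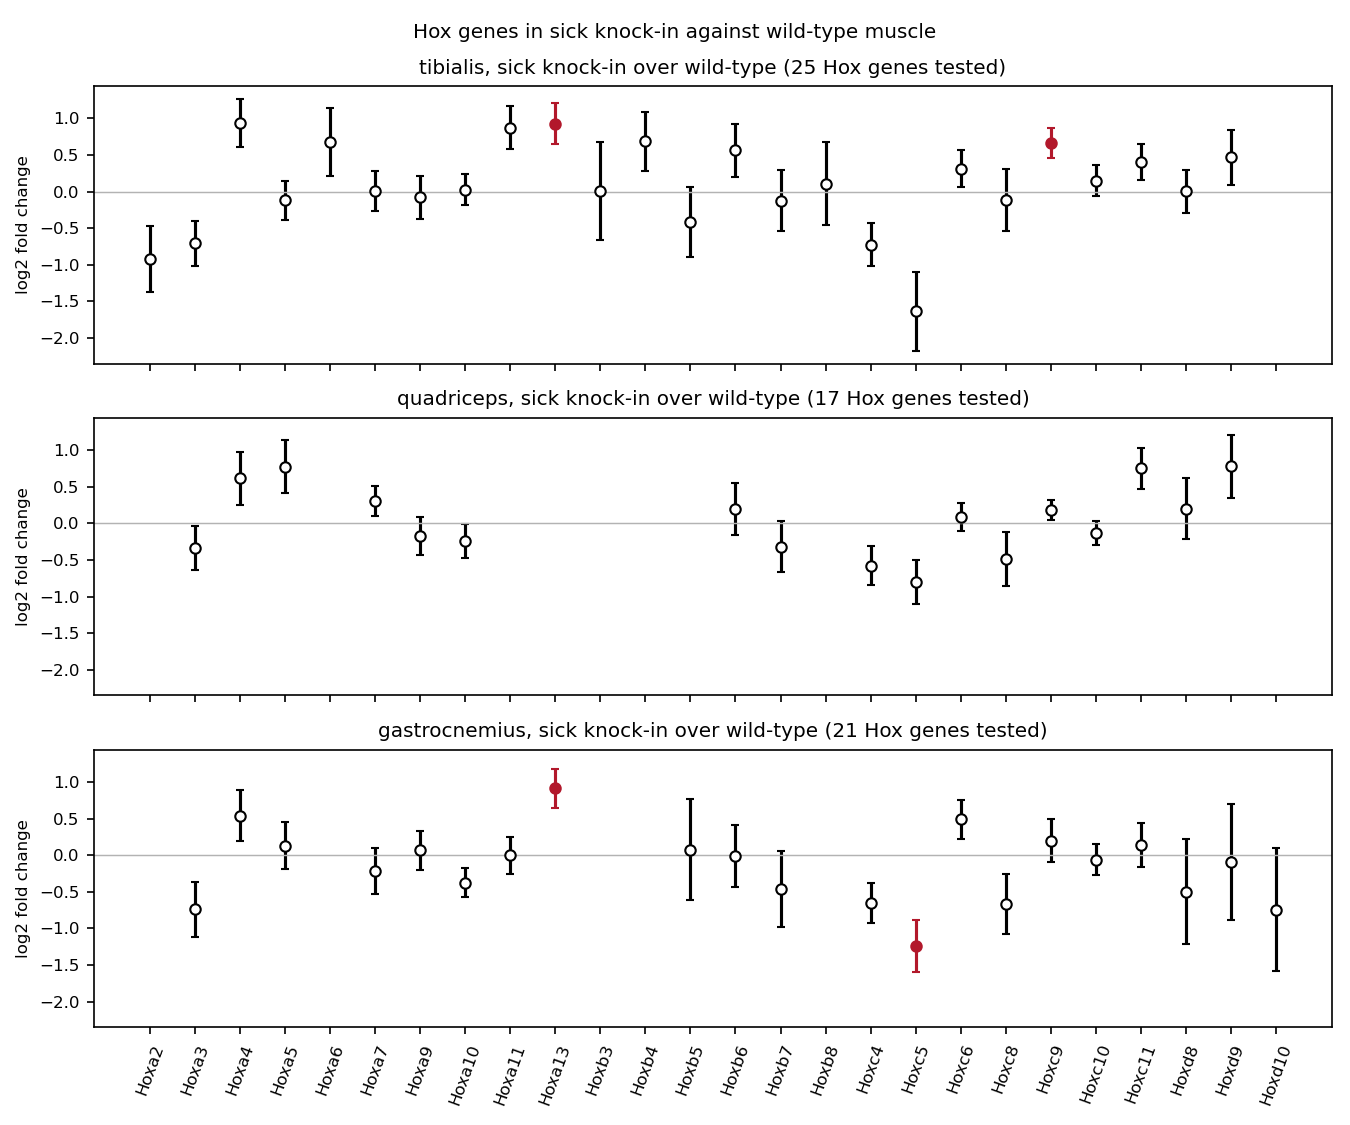
Log2 fold change ± SE of sick over wild-type muscle for each tested Hox gene in tibialis, quadriceps and gastrocnemius, with red for an adjusted p under 0.05. Hoxa13 lies at 0.92 in tibialis and 0.91 in gastrocnemius, and Hoxc5 lies below 0 in all 3 muscles and passes only in gastrocnemius at -1.25.

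Healthy knock-in mice were set against wild type to ask what the allele goes with in animals that the labels call healthy. In this comparison 0 Hox genes were called in tibialis, where 0.496% of all genes were, 0 in quadriceps, where 0.0362% were, and 0 in gastrocnemius, where 0.00706% were (limma, and 0 in each by limma-trend). The share in tibialis includes kidney tubule markers, with Umod, Slc12a1 and Cdh16 among the genes of lowest p. An unadjusted p under 0.05 was reached by 3, 2 and 1 Hox genes in these muscles, where 4.93%, 4.62% and 7.65% of all genes reached it. The fold changes ran from -0.62 for Hoxa5 to 0.64 for Hoxa11 in tibialis, from -1.36 for Hoxd9 to 0.24 for Hoxa4 in quadriceps and from -0.81 for Hoxa5 to 1.21 for Hoxd10 in gastrocnemius. The 3 comparisons of states within a muscle share libraries, so their values are not independent of each other. Markers of fibro-adipogenic progenitors, a connective tissue cell of muscle, summed to 318 to 586 CPM in sick, 714 to 1352 CPM in healthy and 760 to 1049 CPM in wild-type tibialis, with all 12 genes detected. In quadriceps they summed to 816 to 1104 CPM in sick, 881 to 1635 CPM in healthy and 1044 to 1372 CPM in wild-type mice, and in gastrocnemius to 599 to 997.6 CPM in sick, 989 to 1303 CPM in healthy and 1133 to 1561 CPM in wild-type mice. The part of this marker level in the Hox values of sick muscle was not tested.

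Among the members named above, Hoxd8 was at 4.16, 5 and 7.56 CPM in sick tibialis, 12.7, 13.2 and 18.7 CPM in sick quadriceps and 6.49, 24 and 38.7 CPM in sick gastrocnemius, and at 10.8, 18, 10.2 and 14 CPM in wild-type quadriceps. Hoxc11 was at 8.2, 6.19 and 8.78 CPM in sick tibialis, 2.74, 4.49 and 5.41 CPM in sick quadriceps and 6.35, 5.48 and 10.6 CPM in sick gastrocnemius. The quadriceps was thus the lowest in Hoxc11 in sick mice as well. In healthy mice Hoxc11 was at 7.55, 4.88, 7.33 and 3.96 CPM in tibialis, 3.87, 3.31, 2.5 and 1.8 CPM in quadriceps and 6.17, 6.29 and 9.8 CPM in gastrocnemius, where the quadriceps libraries again lay below those of the other muscles. Hoxd10 was at 0, 0.159 and 0.116 CPM in sick tibialis, 0.368, 0.125 and 0.162 CPM in sick quadriceps and 0.214, 0.17, 0.173 and 0 CPM in wild-type quadriceps, close to the detection limit in each.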

How the data were processed

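Total RNA of 32 muscle libraries was analysed, grouped by muscle, genotype and phenotype from the labels. The deposited table holds, per the file headers, whole-number raw counts, the same counts divided by the authors by 1 factor per library, and the authors' own log2 fold changes with adjusted p-values. The submitters' processing notes name cutadapt 1.18, TopHat2 2.1.1, HTSeq 0.6.0, DESeq2 1.22.1 and the build GRCm38, and no source used here gives their settings. The authors' table marks 6252 of 54838 identifiers as missing in every library, and 48586 had counts. Because of these marks the raw columns could not be declared as plain counts, so no count model was run and limma-voom was used.

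The fits were made with limma 3.58.1 under R 4.3.3. Totals were scaled by trimmed means of M values (trims 0.3 and 0.05), 0.5 was added before the logarithm, and a gene also needed a summed count of 15. Each model had 1 mean for each group, with weights from voom and robustly moderated variances, and held the libraries of 1 state (muscle comparisons), of 1 muscle (state comparisons) or all 32 (interaction, and the contrast averaged over states, which was added after the data were seen). All adjusted p-values are from limma with Benjamini-Hochberg adjustment over all genes tested, and 0.05 was the threshold. Of the fits, only that of wild-type tibialis against quadriceps was tested on simulated counts, with 200 genes changed. Coordinates and exon lengths come from GENCODE vM21 (GRCm38), and 16 of 39 Hox identifiers share exon bases with another gene. Total counts of 7685164 to 42588233 set the precision, and genes near 0 are given as summed counts.

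The labels do not say which libraries came from which mouse, and a p-value then reflects only how these libraries spread, which may be technical. All 42 pairs of replicates differed beyond sampling noise (chi-square per gene 13.3 to 220). Replicate numbers of different muscles deviated together in all 10 pairs of healthy libraries (correlation 0.215 to 0.493) and all 6 of sick ones (0.286 to 0.564), over the 0.1 asked for. They did so in 10 of 12 pairs of wild-type libraries (0.02 to 0.549), short of all, and not across states. By this check the numbers pair the muscles of healthy and of sick mice, from the data and not from the design. The fits reported have no block, and blocked results stand beside those healthy and sick results whose calls they change.

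The members, lists and tests were chosen with earlier results of these data known. Members called between wild-type muscles or between states are named with every library, other members with ranges, and members under the filter with summed counts. One result is not reported here. Other genes come from the lists of limb factors, cluster neighbours, cofactors, Polycomb and trithorax regulators and cell markers. Alternatives were median-of-ratios factors, no filter, limma-trend, the replicate block, a fit of all 32 libraries and leaving out each library. Leaving out the 2 gastrocnemius libraries of low HoxD level, or the 4 wild-type tibialis libraries, was added after the data were seen.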

Additional observations from a re-analysis of the deposited data

Results flagged for a closer look

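In 5 groups of 4 libraries, 130 combinations of a group and a Hox gene were searched for a library far from the other 3 (Dixon's test at its 95% critical value). Chance alone gives about 5%, and 13 were found. In healthy quadriceps, replicate 2 held 0.568 CPM of Hoxa11 (others 0 to 0.0618) and 0.379 CPM of Hoxa2 (others 0.586 to 0.602). In healthy tibialis, replicate 4 held 2.56 CPM of Hoxa7 (others 5.08 to 5.18), 0.372 CPM of Hoxb4 (others 0.686 to 0.728) and 3.58 CPM of Hoxd9 (others 1.51 to 1.71). Replicate 3 held 5.75 CPM of Hoxa13 (others 3 to 3.43), and replicate 1 held 1.44 CPM of Hoxb5 (others 0.428 to 0.558).

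In wild-type gastrocnemius, replicate 3 held 2.83 CPM of Hoxd9, against 13.9 to 15.7 CPM in the other replicates, and replicate 4 held 0.35 CPM of Hoxb6, against 0.983 to 1 CPM. In wild-type tibialis, replicate 2 held 1.84 CPM of Hoxb6 (others 0.797 to 0.969), replicate 3 held 2.75 CPM of Hoxb7 (others 0.996 to 1.28) and replicate 4 held 2.35 CPM of Hoxc5 (others 1.3 to 1.45). In wild-type quadriceps, replicate 4 held 3.42 CPM of Hoxa7 (others 5.1 to 5.4). Of all these genes, Hoxa13 is also the one that was higher in sick than in wild-type tibialis, and the healthy library at 5.75 CPM lies above all 3 sick libraries.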

How the results depend on the processing

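Numbers of called Hox genes are given. Fold changes were recomputed for the tested Hox genes called as reported or under an alternative other than leaving out 1 library, and none of these turned its direction, while other Hox genes were not compared. Between wild-type tibialis and gastrocnemius the 1 call became 2 with median-of-ratios factors, 2 without a filter, 3 with limma-trend, 4 with the replicate block and 2 in the fit of all 32 libraries. Between healthy muscles limma-trend gave 1 for tibialis against gastrocnemius and 3 for quadriceps against gastrocnemius. Between sick muscles, with 0 calls as reported, the replicate block gave 1 and the fit of all 32 libraries 2 for tibialis against quadriceps, and no filter gave 1, limma-trend 1 and the fit of all libraries 2 for quadriceps against gastrocnemius. For sick against wild-type tibialis no filter gave 0, the block 1 and the fit of all libraries 4, for quadriceps the fit of all libraries gave 1, and for gastrocnemius no filter and the block both gave 0. By the check of the numbers they do not pair libraries across states, so the block has no basis in comparisons of states. For sick against healthy mice the fit of all libraries gave 1 and limma-trend 1 in tibialis, no filter 2 and limma-trend 0 in quadriceps, and the fit of all libraries 2 in gastrocnemius. For muscles averaged over states, without the 4 wild-type tibialis libraries, an alternative chosen after seeing the data, the counts were 3 for tibialis against gastrocnemius and 4 for quadriceps against gastrocnemius, and the contrast then averages 2 states. The replicate block gave 7, 4 and 6 calls in wild-type mice and 8, 9 and 10 averaged over states. In wild-type mice 10 of 12 pairs of libraries passed the check of the numbers, which asked for all of them. The cause was not tested for these changes.

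With 1 library left out the counts ran from 4 to 7, 0 to 3 and 4 to 8 between wild-type muscles (tibialis against quadriceps, tibialis against gastrocnemius, quadriceps against gastrocnemius), 0 to 3, 0 to 3 and 0 to 2 between healthy ones and 0 to 0 in all 3 sick comparisons. Averaged over states they ran from 7 to 8, 5 to 6 and 6 to 9, and for the interaction from 0 to 1. In tibialis, quadriceps and gastrocnemius they ran from 0 to 3, 0 to 3 and 0 to 1 for sick against wild type, 0 to 1, 0 to 4 and 0 to 2 for sick against healthy, and 0 to 0 for healthy against wild type. Depth limits the genes near 0, such as Hoxa11 and Hoxa13 in quadriceps and Hoxd10 outside the gastrocnemius, whose fold changes rest on 30 to 87 summed counts per muscle.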

Other observations

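Of 21 Polycomb and trithorax genes, which keep Hox genes silent or active, 8 rose in sick against wild-type tibialis, where 18.1% of all genes changed in either direction. In quadriceps 7 rose and 1 fell, where 18% of all genes changed, and in gastrocnemius 5 rose and 1 fell, where 14.7% did. The 21 genes had median log2 fold changes of 0.48, 0.30 and 0.43 in these muscles, against -0.04, 0.00 and -0.03 over all genes. Ezh1, a histone methyltransferase of Polycomb, rose by 1.25 ± 0.27 in tibialis (limma adjusted p = 0.0136), 1.10 ± 0.19 in quadriceps (adjusted p = 0.0101) and 1.33 ± 0.20 in gastrocnemius (adjusted p = 0.00404). Cbx7, a Polycomb reader, rose by 1.20 ± 0.19, 0.97 ± 0.20 and 1.14 ± 0.20 in the same muscles (adjusted p = 0.00466, 0.0143 and 0.00718). Cbx8, of the same family, fell in gastrocnemius by -1.53 ± 0.40 (adjusted p = 0.0288), and Jarid2 fell in quadriceps by -0.74 ± 0.15 (adjusted p = 0.0125).

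Of 8 tested TALE genes, whose proteins bind DNA with Hox proteins, 1 was called between tibialis and quadriceps averaged over states, where 8.4% of all genes were, and 2 between tibialis and gastrocnemius, where 6.43% were. Meis2 was lower in tibialis by -1.60 against quadriceps (limma adjusted p = 0.0098) and -1.51 against gastrocnemius (adjusted p = 0.0167), and Meis1 was higher in tibialis than in gastrocnemius by 0.76 (adjusted p = 0.0274). Of 15 tested genes that flank the clusters 2 were higher in tibialis than in quadriceps, among them Mtx2, which lies next to cluster D (0.59, adjusted p = 0.00292). Calcoco1, a neighbour of cluster C, rose in sick mice in all 3 muscles, by 1.10 ± 0.21 in tibialis, 0.68 ± 0.17 in quadriceps and 0.96 ± 0.15 in gastrocnemius (adjusted p = 0.00819, 0.0246 and 0.00438).

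The authors' deposited table lists adjusted p-values for 34 Hox identifiers. Under 0.05 it has Hoxa13, Hoxc5 and Hoxc9 for sick against wild type in tibialis, Hoxa11 in quadriceps, and Hoxa13 and Hoxc5 in gastrocnemius. For sick against healthy mice the authors' deposited table has Hoxc5 in tibialis, Hoxa5 and Hoxa11 in quadriceps and Hoxa13 in gastrocnemius, and for healthy against wild type it has 0 in each muscle.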
